A study of Mus musculus with 9 samples.

Results

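The genes described here are the 37 genes of the mouse mitochondrial genome, chosen as the genes whose symbol starts with mt- among 54725 in the deposited expression matrix. They comprise 13 mRNAs, 2 rRNAs and 22 tRNAs, each listed with a single transcript. RNA was sequenced from RAW264.7 cells, a mouse macrophage line, in 9 samples that fall by title into 3 groups of 3, named CON, LPS and ProNa. Bacterial lipopolysaccharide is LPS, and ProNa is an abbreviation that the labels do not spell out. One treatment text serves every sample: it has cells cultured for 24 h in medium that held ProNa at 1 mM or did not, and then given LPS at 100 ng/mL for 12 h. The titles are read here as untreated cells (CON), cells given LPS without ProNa (LPS) and cells given ProNa and then LPS (ProNa). No label states this sample by sample, and read so, ProNa was never given without LPS. Separate cultures are not stated for the samples of a group, so p-values here measure only their spread, which may be technical. All samples share the same cell line.

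Mitochondrial DNA is a small circle transcribed from both strands into long precursor RNAs, by a single polymerase, Polrmt, with the factors Tfam and Tfb2m. The tRNAs lie between most of the other genes, and their excision by RNase P and Elac2 releases the rRNAs and mRNAs. The mRNAs encode subunits of respiratory complexes I, III and IV and of the ATP synthase, complex V, in which they join subunits encoded in the nucleus. All mRNAs except mt-Nd6 are read from the same strand, and the rRNAs lie near the start of that strand. In macrophages, LPS is known to shift energy metabolism from respiration towards glycolysis.

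The values are the authors' mean FPKM (fragments scaled to transcript length and to all mapped fragments of a library) of each group, and the log2 fold changes and adjusted p-values of the authors' deposited table. No value per sample could be assigned, so neither an SD nor an overlap of groups can be given, and the depth is unknown. In bulk RNA, fewer cells of a type and less RNA per cell cannot be told apart, and FPKM is relative to all other RNA of a library. Of 10 macrophage markers 9 were above 1 FPKM, with sums of 12863.5, 3503 and 4930 FPKM in CON, LPS and ProNa. In LPS against CON 5 of them rose and 4 fell at an adjusted p under 0.05 in that table. Of all 17795 adjusted genes, 28.1% were higher and 27.2% lower. Csf1r (-4.29), Lyz2 (-3.61) and Adgre1 (1.40) had the smallest adjusted p of the list. The extraction text speaks of colonic segments, yet none of 10 epithelial markers was above 1 FPKM in any group, with summed levels from 0.0367 to 0.17 FPKM, and Epcam, Krt20, Cdx2, Cdh1 and Tff3 were listed at 0. Of 8 lymphocyte markers none was above 1 FPKM, with sums from 0.0234 to 0.0334 FPKM and Cd3e, Cd3d, Cd4, Cd8a and Nkg7 at 0. Of 9 fibroblast and smooth muscle markers 1 was above 1 FPKM, Acta2, a smooth muscle actin, at 0.947, 13.7 and 17.6 FPKM in CON, LPS and ProNa. Lum was at 0, and the sum of that list was 1.41, 14.1 and 17.8 FPKM. The part of these markers in the results below was not tested.

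The 22 tRNA genes, 59 to 75 bases long, were all listed at 0 FPKM in every group and had no test. The sources used here do not give how RNA was selected for the libraries or how long the reads were, so the 0 values do not show that the tRNAs were absent. Their place in the genome still marks borders between other members. The leucine tRNA mt-Tl1 lies between mt-Rnr2 and mt-Nd1, the point at which the rRNAs end and the mRNAs begin, and the termination factor Mterf1 is known to bind within it. The sequence of mt-Tl1 is from GENCODE release M21 on the build GRCm38, read 5′ to 3′ along the strand of the rRNAs. It is shown because the rRNAs and mRNAs on its sides moved in opposite directions. Whether Mterf1 had a part in those directions was not tested. In the authors' deposited table, Mterf1a and Mterf1b had log2 fold changes of -0.07 and -0.42 in LPS against CON. Their adjusted p-values in that table were 0.847 and 0.357.
mt-Tl1: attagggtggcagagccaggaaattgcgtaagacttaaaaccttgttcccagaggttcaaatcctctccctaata

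Several mRNAs share bases with a neighbour, which limits how far their levels can be separated. mt-Atp8 and mt-Atp6, the 2 mitochondrial subunits of the ATP synthase, lie on 1 shared mRNA and overlap by 43 bases. mt-Nd4l and mt-Nd4, subunits of complex I, likewise share an mRNA and 7 bases. mt-Atp6 and mt-Co3 overlap by 1 base, and mt-Nd5 and mt-Nd6 overlap by 14 bases on opposite strands. The sources used here do not give how strand was handled, so reads from the last overlap cannot be told apart. For the same reason, reads elsewhere in mt-Nd6 cannot be assigned to a strand. The overlaps are shown in capitals, with mt-Atp8 whole because it had the highest level of all members.
mt-Atp8: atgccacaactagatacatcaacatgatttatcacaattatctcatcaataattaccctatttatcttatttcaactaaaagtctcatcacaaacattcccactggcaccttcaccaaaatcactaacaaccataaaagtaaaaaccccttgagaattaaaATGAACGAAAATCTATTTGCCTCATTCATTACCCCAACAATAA
mt-Atp6, first 60 bases: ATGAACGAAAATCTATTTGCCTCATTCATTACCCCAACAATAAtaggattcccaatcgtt
mt-Nd4l, last 60 bases: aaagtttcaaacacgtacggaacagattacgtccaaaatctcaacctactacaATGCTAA
mt-Nd4, first 60 bases: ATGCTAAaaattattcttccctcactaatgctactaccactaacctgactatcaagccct

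A second limit is a set of nuclear copies. In GENCODE M21, 7 genes on chromosome 1, annotated as unprocessed pseudogenes on 1 strand, aligned to a mitochondrial mRNA over at least 300 bases, or over at least 95% of the copy, at 99% identity or more. In the order of that strand they were Gm29216, Gm28661, Gm10925, Gm28437, Gm28438, Gm10222 and Gm28439, the same order as their counterparts mt-Co1, mt-Co2, mt-Atp6, mt-Co3, mt-Nd3, mt-Nd4l and mt-Nd4 have in the mitochondrial genome. Gm28661, Gm10925, Gm28437 and Gm10222 had no mismatch over 681, 678, 783 and 294 aligned bases. Gm28438 had 1 mismatch to mt-Nd3 over 345 bases, T3C, counted from 1 at the 5′ end of mt-Nd3. Gm29216 matched bases 1063 to 1545 of mt-Co1 with 1 mismatch, A1066T, counted in the same way on mt-Co1. Gm28439 matched the first 876 bases of mt-Nd4 with no mismatch and was listed at 0 FPKM. The stretches around the mismatches, and the ends of mt-Co3 and its copy, show how little separates the pairs. Capitals mark the base that differs or, for mt-Co3, the last base, which lies outside the copy.
mt-Co1, bases 1063 to 1086: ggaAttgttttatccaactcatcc
Gm29216: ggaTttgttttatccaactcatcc
mt-Nd3, bases 1 to 23: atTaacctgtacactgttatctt
Gm28438: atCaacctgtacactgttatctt
mt-Co3, bases 725 to 784: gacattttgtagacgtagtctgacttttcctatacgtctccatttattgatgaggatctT
Gm28437: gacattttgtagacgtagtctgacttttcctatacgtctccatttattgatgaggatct

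Stretches of 100 bases give a sense of what reads could be told apart. Of all such stretches of mt-Co2, 99.5% occur letter for letter in another annotated transcript, and the share was 99.5% for mt-Atp6, 99.9% for mt-Co3, 97.6% for mt-Nd3 and 98.5% for mt-Nd4l. It was 60.8% for mt-Nd4, 30.8% for mt-Co1 and 3.19% for mt-Nd2, and 0% for mt-Rnr1, mt-Rnr2, mt-Nd1, mt-Atp8, mt-Nd5, mt-Nd6 and mt-Cytb. A read inside a shared stretch can come from either locus by its letters, and the sources used here do not give how the authors' alignment placed such reads. The FPKM listed for a mitochondrial gene and for its copy are therefore given side by side below, and how much RNA came from each locus was not tested.

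In CON, the levels of the mRNAs, which FPKM puts on a scale per length, ran over a 137-fold range. mt-Atp8 (ENSMUSG00000064356, 204 bases) stood highest at 33149 FPKM, the highest level of all genes in CON, and ranked 4 in LPS and in ProNa. It alone held 53.3%, 49.7% and 50% of the members' summed FPKM in CON, LPS and ProNa. mt-Co1 (ENSMUSG00000064351), the catalytic core of cytochrome c oxidase, followed at 13040 FPKM, and mt-Cytb (ENSMUSG00000064370), the mitochondrial subunit of complex III, at 4455 FPKM. The complex I subunits mt-Nd1 (ENSMUSG00000064341), mt-Nd4 (ENSMUSG00000064363), mt-Nd2 (ENSMUSG00000064345), mt-Nd5 (ENSMUSG00000064367) and mt-Nd6 (ENSMUSG00000064368) came next, from 3393 down to 1205 FPKM. The lowest levels among the mRNAs, 541 FPKM and under, were those of mt-Nd4l, mt-Nd3, mt-Co2, mt-Co3 and mt-Atp6, the genes with a nuclear copy over nearly their whole length. Of the rRNAs in CON, mt-Rnr1, at 164 FPKM, lay below every mRNA, and mt-Rnr2, at 253 FPKM, lay above mt-Atp6 alone. Neighbours in this order cannot be tested without values per sample. FPKM divides by length, and mt-Atp8, at 204 bases, was the shortest of the mRNAs. In CON, mt-Atp6, which shares its mRNA, summed to 8631 FPKM with its copy Gm10925. The reason for the distance of mt-Atp8 from that sum was not tested.

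**Figure D1:**
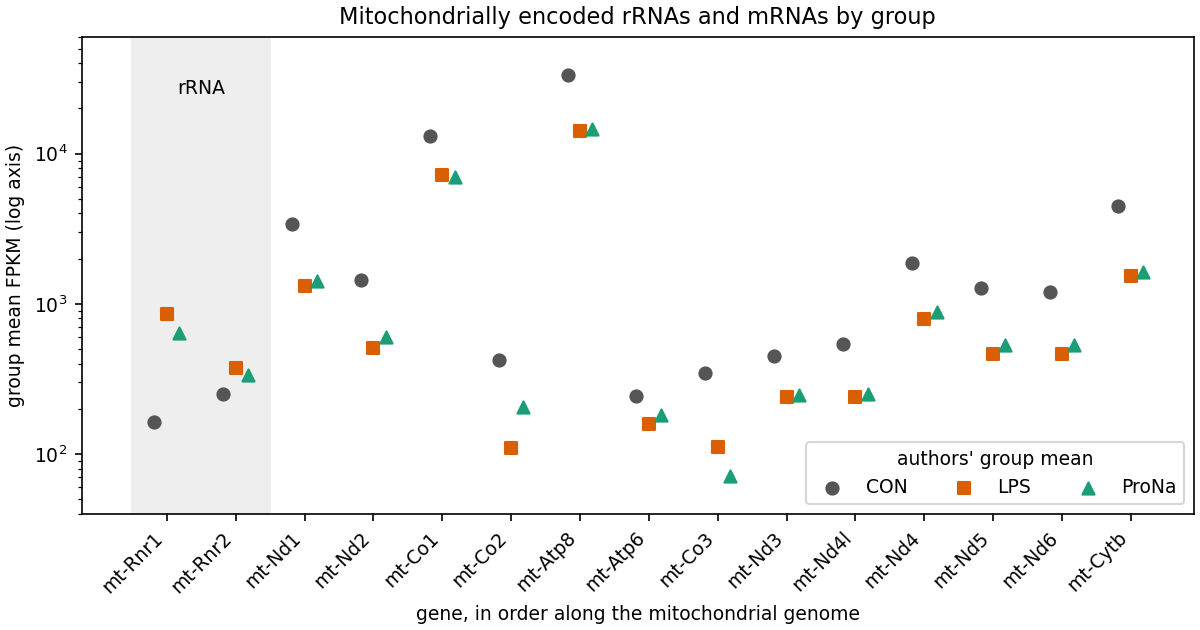
Group mean FPKM (log axis) of the 2 mitochondrially encoded rRNAs, shaded, and 13 mRNAs, in genome order; grey circles are CON, orange squares LPS and green triangles ProNa, each the authors' mean. For every mRNA the CON point is the highest of the 3, and for both rRNAs it is the lowest.

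For the genes with copies, most of the FPKM of the pair was listed under the nuclear copy. mt-Co2, a core subunit of cytochrome c oxidase, stood at 425, 109 and 206 FPKM in CON, LPS and ProNa, and Gm28661 at 13740, 7105 and 7530 FPKM. mt-Co2 thus held 3.0%, 1.51% and 2.66% of the sum of the pair. mt-Atp6, the proton channel subunit of the ATP synthase, stood at 242, 158 and 183 FPKM, against 8389, 4245 and 4376 FPKM for Gm10925. The copy was 34.6 times the mitochondrial gene in CON. mt-Co3, the third core subunit of cytochrome c oxidase, stood at 346, 112 and 71.7 FPKM and held 3.26%, 1.90% and 1.18% of its sum with Gm28437 (10273, 5801 and 6000 FPKM). mt-Nd3 held 15.5%, 22.2% and 21.5% of its sum with Gm28438 (2438, 836 and 907 FPKM), and mt-Nd4l held 9.60%, 14.2% and 12.9% of its sum with Gm10222 (5097, 1443 and 1691 FPKM). mt-Co1 was the reverse, with 77.6%, 63.1% and 63.4% of its sum with Gm29216, which matches only the end of the gene (3768, 4200 and 4014 FPKM). As Gm29216 has 492 bases and mt-Co1 has 1545, these shares of FPKM are not shares of reads.

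**Figure D2:**
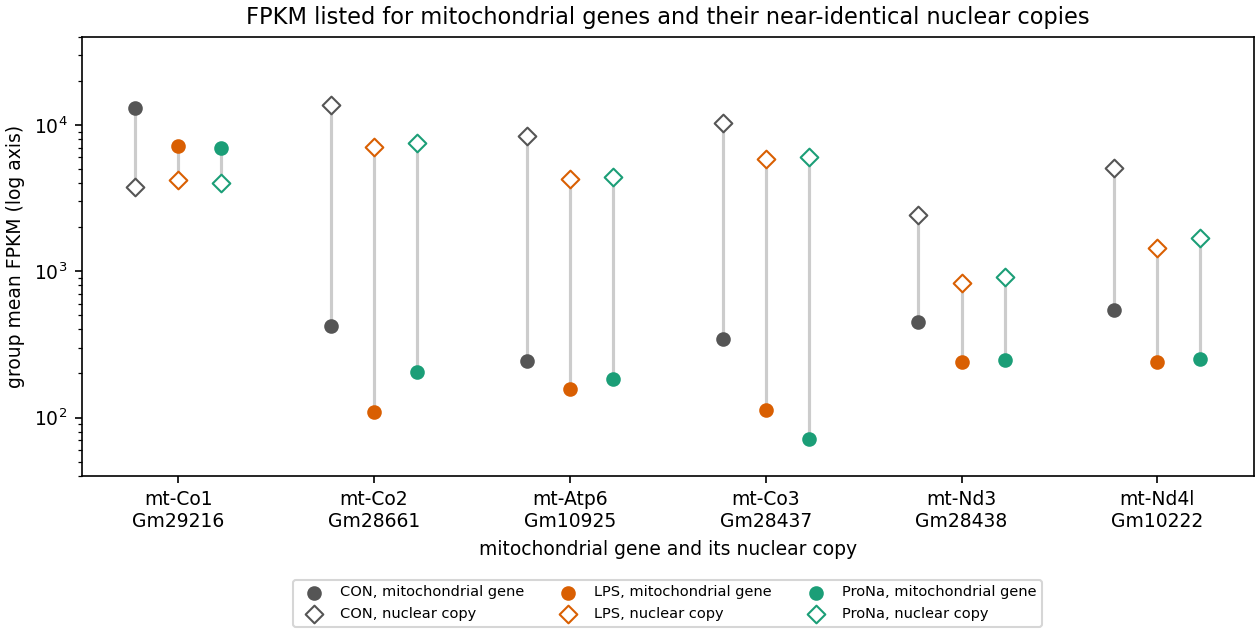
Group mean FPKM (log axis) of 6 mitochondrial genes (filled circles) and their nuclear copies (open diamonds), coloured by group; a line joins each pair, and every point is the authors' mean. The copy lies above the mitochondrial gene in 5 of the 6 pairs, and below it for mt-Co1.

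The first comparison, LPS against CON, shows the members with and without LPS. Most mRNAs were lower with LPS and both rRNAs were higher. Of 15 genes with an adjusted p in the authors' deposited table, 10 fell and 2 rose, and 3 did not pass a threshold of 0.05. Of all 17795 genes so adjusted, 27.2% were lower and 28.1% higher. The median log2 fold change of the 13 mRNAs was -1.10 in the authors' deposited table, against -0.02 over all adjusted genes. The 10 genes that fell were mRNAs and the 2 that rose were rRNAs.

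Among the 7 complex I subunits, which sit in the membrane arm that pumps protons, 6 fell by the authors' deposited table. mt-Nd1 went from 3393 to 1318 FPKM, a log2 fold change of -1.10 in the authors' deposited table (adjusted p = 1.5e-104). mt-Nd2 went from 1431 to 508 FPKM (-1.23 in the authors' deposited table, adjusted p = 4.7e-105). mt-Nd5 went from 1284 to 462 FPKM (-1.21 in the authors' deposited table, adjusted p = 2.1e-30). These 3 subunits thus had similar fold changes, although mt-Nd5 lies near the far end of the strand from mt-Nd1 and mt-Nd2. mt-Nd4 went from 1872 to 795 FPKM (-0.97 in the authors' deposited table, adjusted p = 4.6e-55). mt-Nd4l (ENSMUSG00000065947), on the same mRNA, went from 541 to 239 FPKM (-0.94 in the authors' deposited table, adjusted p = 5.8e-05). mt-Nd6, the 1 mRNA read from the other strand, went from 1205 to 462 FPKM (-1.12 in the authors' deposited table, adjusted p = 2.2e-55). Its fold change lay within the range of the subunits from the first strand, and the difference between strands was not tested. From which strand the reads counted for mt-Nd6 came is not known. mt-Nd3 (ENSMUSG00000064360) had means of 448 and 239 FPKM and did not pass (-0.66 in the authors' deposited table, adjusted p = 0.103).

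The mitochondrial subunit of complex III had the smallest adjusted p among the members. mt-Cytb, whose haem groups carry electrons through that complex, went from 4455 to 1539 FPKM (-1.27 in the authors' deposited table, adjusted p = 3.1e-153). Its rank among all genes went from 12 in CON to 61 in LPS and 65 in ProNa.

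In complex IV, mt-Co1 and mt-Co2 fell and mt-Co3 did not pass. mt-Co1 went from 13040 to 7168 FPKM (-0.59 in the authors' deposited table, adjusted p = 2.9e-36). Of the mRNAs that fell, it had the log2 fold change nearest to 0. mt-Co2 (ENSMUSG00000064354) had the one farthest from 0, -1.70 in the authors' deposited table (adjusted p = 3.0e-04). mt-Co3 (ENSMUSG00000064358) stood at -1.34 in the authors' deposited table and did not pass (adjusted p = 0.545), although that value lay farther from 0 than the one of mt-Cytb.

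In complex V, mt-Atp8 fell and mt-Atp6 did not pass, although the 2 share an mRNA. mt-Atp8 went from 33149 to 14188 FPKM (-0.83 in the authors' deposited table, adjusted p = 3.0e-22). mt-Atp6 (ENSMUSG00000064357) stood at a log2 fold change of -0.34 in the authors' deposited table (adjusted p = 0.644). Its copy Gm10925, with the same letters over 678 bases, went from 8389 to 4245 FPKM (-0.72 in the authors' deposited table, adjusted p = 6.5e-31).

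The 3 mRNAs that did not pass, mt-Atp6, mt-Co3 and mt-Nd3, are all among the 6 with a copy above 1 FPKM. Of the 7 mRNAs without one, 7 fell in the authors' deposited table, and of the 6 with one, 3 fell. Among the copies themselves, 5 fell and 1 rose in the authors' deposited table. Gm10222, the copy of mt-Nd4l, had a log2 fold change of -1.56 (adjusted p = 5.5e-63) and Gm28438, the copy of mt-Nd3, one of -1.27 (adjusted p = 4.6e-07) in the authors' deposited table. Gm28661 and Gm28437, the copies of mt-Co2 and mt-Co3, had log2 fold changes of -0.69 (adjusted p = 3.8e-31) and -0.56 (adjusted p = 1.2e-29) in the authors' deposited table. The copy that rose was Gm29216, at 0.42 in the authors' deposited table (adjusted p = 3.6e-04), but on the FPKM scale defined below it did not pass (0.18, adjusted p = 0.176).

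The log2 ratio of LPS to CON mean FPKM, each plus 0.5, ran from -1.96 to -0.62 over the 13 mRNAs as listed, and from -1.74 to -0.84 with the 5 copies of nearly full length added to their genes. With Gm29216, the copy of the end of mt-Co1, added as well, it ran from -1.74 to -0.56, and mt-Co1 was then the mRNA nearest to 0. FPKM divides by length, and Gm29216 has 492 bases against 1545 of mt-Co1. Their sum is therefore not the FPKM that mt-Co1 would have with the reads of its copy. The median was -1.36 in each case. Over the 7 mRNAs without a copy above 1 FPKM it ran from -1.53 to -1.22, with a median of -1.38. The summed pairs of mt-Co2, mt-Atp6, mt-Co3, mt-Nd3 and mt-Nd4l had log2 ratios of -0.97, -0.97, -0.84, -1.42 and -1.74. For 11814 genes with a mean of at least 1 FPKM, the median log2 ratio was -0.16.

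The rRNAs moved the other way. mt-Rnr1 (ENSMUSG00000064337, 955 bases), the RNA of the small mitochondrial ribosomal subunit, went from 164 to 859 FPKM with LPS, and its log2 fold change was 2.65 in the authors' deposited table (adjusted p = 1.3e-136). mt-Rnr2 (ENSMUSG00000064339, 1582 bases), the RNA of the large subunit, went from 253 to 373 FPKM, a log2 fold change of 0.83 in the authors' deposited table (adjusted p = 8.9e-26). mt-Rnr1 was 0.651 times mt-Rnr2 in CON and 2.30 times mt-Rnr2 in LPS, although they lie side by side on 1 precursor. Neither rRNA shared a 100-base stretch with another annotated transcript. The summed rRNA level was 417 FPKM in CON and 1231 FPKM in LPS, that is 0.670% and 4.32% of the members' sum. The sources used here do not give how ribosomal RNA was treated in the libraries, and its part in these levels was not tested.

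The scale of the fold changes bears on the counts. Over adjusted genes with a mean of at least 1 FPKM, log2 values in the authors' deposited table differed from log2 ratios of mean FPKM. The table's values lay a median of 0.25 above for LPS against CON, 0.13 for ProNa against LPS and 0.38 for ProNa against CON. Taking that median off each log2 fold change, with the same standard error, gives what is here called the FPKM scale. On it, 35.2% of all adjusted genes were lower and 21.7% higher in LPS than in CON. Of the 15 members with an adjusted p, 11 were then lower and 2 higher, since mt-Nd3 joined those that fell. The directions of the members that had passed were the same on both scales.

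**Figure D3:**
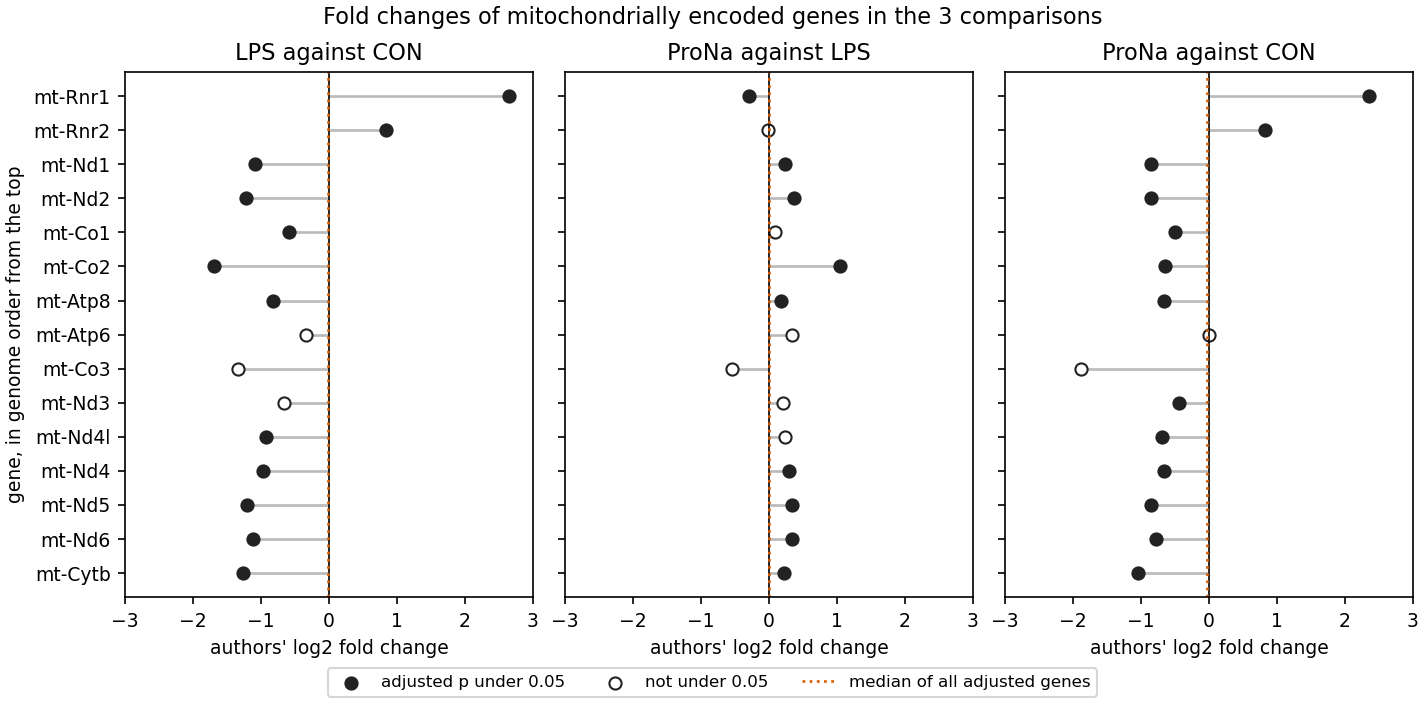
Log2 fold changes of the authors' deposited table for 15 members in genome order, 1 panel for each comparison; filled circles have an adjusted p under 0.05, open circles do not, and the dotted line is the median of all adjusted genes. In LPS against CON and in ProNa against CON the rRNAs lie right of 0 and the mRNAs that passed left of it; in ProNa against LPS the mRNAs that passed lie right of 0 and mt-Rnr1 left of it.

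The second comparison, ProNa against LPS, is that of cells given ProNa before LPS with cells given LPS alone. Most mRNAs were slightly higher with ProNa and mt-Rnr1 was lower. Of 15 members with an adjusted p in the authors' deposited table, 8 rose and 1 fell, against 16.5% higher and 14.1% lower of all 12732 adjusted genes. The median log2 fold change of the 13 mRNAs was 0.24 in the authors' deposited table, and that of all adjusted genes was -0.0024. On the FPKM scale 3 members rose, mt-Nd2, mt-Nd4 and mt-Nd6, and 1 fell, mt-Rnr1, against 10.8% higher and 25.3% lower of all adjusted genes. This comparison and the first share the LPS samples, so a chance deviation of those samples enters both with opposite sign.

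In complex I, 5 of the 7 subunits rose in the authors' deposited table. mt-Nd2 went from 508 FPKM in LPS to 598 FPKM in ProNa (0.37 in the authors' deposited table, adjusted p = 1.4e-08). mt-Nd4 went from 795 to 889 FPKM (0.29 in the authors' deposited table, adjusted p = 7.6e-06) and mt-Nd6 from 462 to 529 FPKM (0.33 in the authors' deposited table, adjusted p = 3.5e-05). The means of mt-Nd2, mt-Nd4 and mt-Nd6 in ProNa were still below those of 1431, 1872 and 1205 FPKM in CON. mt-Nd5, at 462 and 535 FPKM, had a log2 fold change of 0.35 in the authors' deposited table (adjusted p = 0.0020), and mt-Nd1, at 1318 and 1415 FPKM, one of 0.23 (adjusted p = 7.9e-05). mt-Nd3 and mt-Nd4l, at 248 and 251 FPKM in ProNa, did not pass in the authors' deposited table (adjusted p = 0.720 and 0.707).

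Outside complex I, the mRNAs that rose were mt-Cytb, mt-Co2 and mt-Atp8. mt-Cytb went from 1539 to 1631 FPKM (0.22 in the authors' deposited table, adjusted p = 1.6e-04). mt-Atp8 went from 14188 to 14509 FPKM (0.17 in the authors' deposited table, adjusted p = 0.0359), a difference in FPKM of a few percent. mt-Co2 had the log2 fold change farthest from 0 among the members, 1.05 in the authors' deposited table (adjusted p = 0.0432). These 3 mRNAs, and mt-Nd1 and mt-Nd5, did not pass on the FPKM scale. mt-Co1 (7168 and 6958 FPKM; 0.09), mt-Atp6 (158 and 183 FPKM; 0.33) and mt-Co3 (112 and 71.7 FPKM; -0.54) did not pass in the authors' deposited table either (adjusted p = 0.198, 0.663 and 0.890).

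Of the 7 mRNAs without a copy above 1 FPKM, 7 rose in the authors' deposited table, and of the 6 with one, 1 rose. The 3 mRNAs that rose on the FPKM scale were among these 7. Of the copies, 4 rose and 0 fell in the authors' deposited table, and on the FPKM scale 1 rose, Gm10222. Gm10222 had a log2 fold change of 0.39 (adjusted p = 0.0014), Gm28661 one of 0.22 (adjusted p = 0.0021), Gm28437 one of 0.18 (adjusted p = 0.0050) and Gm10925 one of 0.18 (adjusted p = 0.0218) in the authors' deposited table. With the 6 copies added, the log2 ratios of ProNa to LPS mean FPKM ran from -0.05 to 0.24 over the 13 mRNAs, against -0.64 to 0.91 as listed.

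mt-Rnr1 went from 859 FPKM in LPS to 637 FPKM in ProNa (-0.30 in the authors' deposited table, adjusted p = 0.0014). mt-Rnr2, at 373 and 337 FPKM, did not pass (-0.01 in the authors' deposited table, adjusted p = 0.93). The ratio of mt-Rnr1 to mt-Rnr2 was 1.89 in ProNa, between the 0.651 of CON and the 2.30 of LPS.

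The third comparison, ProNa against CON, sets cells given both agents against cells given neither. Of the members, 11 fell and 2 rose in the authors' deposited table, and mt-Atp6 and mt-Co3 did not pass. Of all 18540 adjusted genes, 26.6% were lower and 27.7% higher. On the FPKM scale the members' counts were again 11 and 2, against 38.3% lower and 18.8% higher of all adjusted genes. The median log2 fold change of the 13 mRNAs was -0.70 in the authors' deposited table and -0.03 over all adjusted genes. This comparison shares the CON samples with the first and the ProNa samples with the second.

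All 7 complex I subunits fell in ProNa against CON, from mt-Nd5 and mt-Nd1 at a log2 fold change of -0.86 each in the authors' deposited table (adjusted p = 8.7e-103 and 1.6e-126) to mt-Nd3 at -0.45 (adjusted p = 0.0037). mt-Nd2 stood at -0.85, mt-Nd6 at -0.79, mt-Nd4l at -0.70 and mt-Nd4 at -0.67 in the authors' deposited table. mt-Cytb had a log2 fold change of -1.04 in the authors' deposited table (adjusted p = 1.2e-232), the smallest adjusted p among the members. mt-Atp8 and mt-Co1 fell by 0.66 (adjusted p = 8.8e-24) and 0.50 (adjusted p = 3.8e-42) on the log2 scale in the authors' deposited table, and mt-Co2 fell by 0.65 (adjusted p = 0.0071). mt-Co3, with the log2 fold change farthest below 0, -1.88 in the authors' deposited table (adjusted p = 0.350), did not pass, nor did mt-Atp6 at -0.0028 (adjusted p = 0.997). mt-Rnr1 rose by 2.36 (adjusted p = 8.0e-59) and mt-Rnr2 by 0.82 (adjusted p = 2.6e-09) on the log2 scale in the authors' deposited table.

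Summed over all members, mitochondrially encoded RNA made up 7.88% of the FPKM of all genes in CON, 3.63% in LPS and 3.65% in ProNa. The shares in LPS and ProNa were thus nearly equal, although 8 single mRNAs rose between them in the authors' deposited table. The 13 mRNAs summed to 61830, 27296 and 28023 FPKM in CON, LPS and ProNa. Their median was 1284, 462 and 535 FPKM. By complex, the 7 complex I subunits summed to 10174, 4022 and 4465 FPKM in CON, LPS and ProNa. The 3 complex IV subunits summed to 13811, 7390 and 7236 FPKM, and the 2 complex V subunits to 33391, 14345 and 14691 FPKM. The sum of complex IV was thus lower in ProNa than in LPS, and those of complexes I and V were higher, with no test of these sums. With the 6 copies counted, the share of all FPKM was 13.4%, 6.64% and 6.75%. The copies alone held 5.53%, 3.01% and 3.09%.

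The nuclear genes that act with the members were followed from lists of respiratory subunits and of mitochondrial transcription, RNA and translation factors. Of 73 genes for nuclear subunits of complexes I, III, IV and V, 43 fell and 4 rose in LPS against CON in the authors' deposited table. Their median was -0.36 on the log2 scale, against -1.10 for the mitochondrial mRNAs. ProNa against LPS had 28 that rose and 0 that fell in the authors' deposited table (median 0.17), and ProNa against CON had 33 that fell and 14 that rose (median -0.14). By the FPKM scale 58 fell and 2 rose in LPS against CON, 0 fell and 8 rose in ProNa against LPS, and 60 fell and 3 rose in ProNa against CON. The all-gene percentages given above for each comparison apply to these counts and to those of every list below.

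By complex, 18 of 37 nuclear complex I genes fell and 3 rose in LPS against CON in the authors' deposited table. Ndufa10, an accessory subunit, went from 72.8 to 29.8 FPKM (-1.09 in the authors' deposited table, adjusted p = 4.5e-33), with Ndufb3 at -0.98. In complex III, 6 of 9 fell and 1 rose in the authors' deposited table, led by the hinge subunit Uqcrh (-0.91), cytochrome c1, Cyc1 (-0.69), and Uqcr10 (-0.89). In complex IV, 9 of 11 fell and 0 rose in the authors' deposited table, led by Cox6c (346 to 136 FPKM, -1.08), Cox5a (-0.69) and Cox7c (-0.62). In complex V, 10 of 16 fell and 0 rose in the authors' deposited table, led by Atp5a1, the catalytic alpha subunit (424 to 186 FPKM, -0.92), the inhibitor Atpif1 (-1.21) and Atp5c1 (-1.05). Complex II, succinate dehydrogenase, has no mitochondrially encoded subunit, and 4 of its 4 genes fell in the authors' deposited table, Sdha from 116 to 41.5 FPKM (-1.21) with Sdhd at -0.55 and Sdhb at -0.63. On the FPKM scale 26, 7, 10, 15 and 4 genes fell in complexes I, III, IV, V and II.

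In ProNa against LPS, 10, 4, 6, 8 and 2 genes of complexes I, III, IV, V and II rose and 0 fell in the authors' deposited table. On the FPKM scale 1, 1, 1, 5 and 0 rose and 0 fell, so most of these calls depended on the scale. In complex I, Ndufb1 (0.71) and Ndufa8 (0.28) were among those that led in the authors' deposited table. In complex III, Uqcrc2 (0.54), Uqcr11 (0.34) and Uqcrc1 (0.17) led, and in complex IV Cox7b (0.36), Cox6c (0.39) and Cox7c (0.33), in the authors' deposited table. In complex V, Atpif1 (0.44), Atp5a1 (0.32) and Atp5g3 (0.45) led in the authors' deposited table, and in complex II Sdha (0.18) and Sdhb (0.24).

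**Figure D4:**
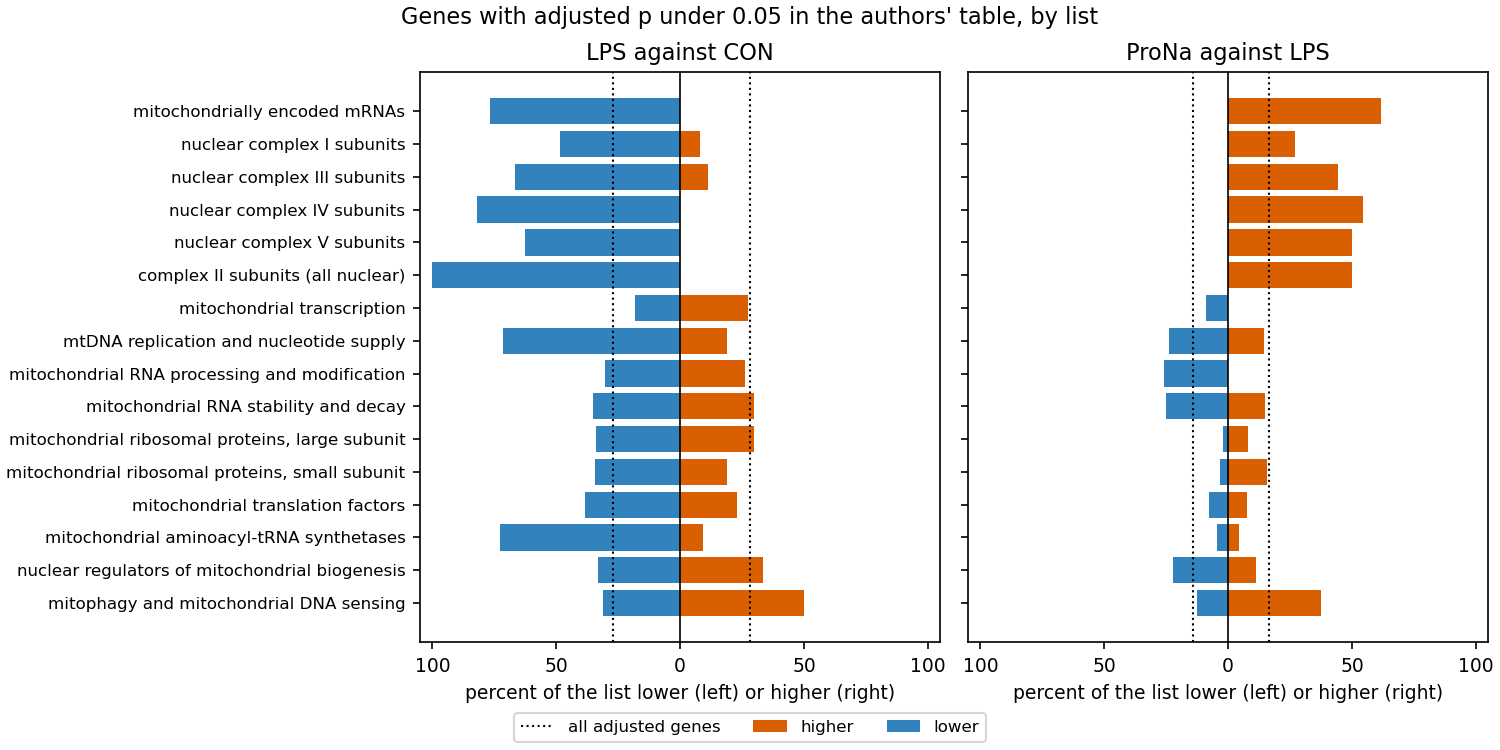
Percent of the genes of each list that were lower (blue, left) or higher (orange, right) with an adjusted p under 0.05 in the authors' deposited table, with LPS against CON in the left panel and ProNa against LPS in the right; dotted lines mark the percent of all adjusted genes. The mitochondrially encoded mRNAs and the subunits of all 5 complexes lie mainly to the left in the first panel and wholly to the right in the second.

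Genes listed for mitochondrial transcription and its regulation did not move in 1 direction. Of 11 transcription genes 3 rose and 2 fell in LPS against CON in the authors' deposited table (median 0.01). Among all adjusted genes, 28.1% rose and 27.2% fell in that comparison, and 16.5% rose and 14.1% fell in ProNa against LPS. By the FPKM scale these shares were 21.7% and 35.2%, and 10.8% and 25.3%. They are the background for each list count that follows. Mterf3, which represses transcription of mitochondrial DNA, went from 22.8 to 36.4 FPKM (0.81 in the authors' deposited table, adjusted p = 8.0e-16), and Mterf4, needed for assembly of the mitochondrial ribosome, had a log2 fold change of 0.74. Mrpl12, a ribosomal protein that also binds the polymerase, had one of -0.73 in the authors' deposited table. The factor Tfb2m fell as well (-0.49 in the authors' deposited table, adjusted p = 1.6e-05). Polrmt and Tfam did not pass in LPS against CON (-0.15 and 0.03 in the authors' deposited table, adjusted p = 0.178 and 0.833). In ProNa against LPS 0 rose and 1 fell, Polrmt, the polymerase itself, at 22.7, 19.3 and 13.9 FPKM in CON, LPS and ProNa (-0.36 in the authors' deposited table, adjusted p = 0.0085). Of the same genes, 2 rose and 3 fell on the FPKM scale in the first of these comparisons, and 0 rose and 3 fell in the second.

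Genes of mitochondrial DNA replication and nucleotide supply had a median farther from 0, and several of them also serve nuclear DNA. Of 21, 15 fell and 4 rose in LPS against CON in the authors' deposited table (median -0.73). Rrm1 and Rrm2, the subunits of ribonucleotide reductase, which also serves nuclear DNA, had log2 fold changes of -3.43 and -4.88 in the authors' deposited table. Dut (-3.32), Tyms (-1.63), Dna2 (-1.51) and Fen1 (-0.95), which serve nuclear DNA too, fell in that table. So did Twnk, the helicase of mitochondrial DNA (-0.67). The 4 that rose were Cmpk2, Slc25a33 (3.02), Tk2 (0.35) and Polg, the polymerase of mitochondrial DNA (0.28). Cmpk2, a nucleotide kinase that supplies deoxynucleotides for mitochondrial DNA synthesis, went from 15.5 to 308 FPKM (4.60 in the authors' deposited table) and stood at 677 FPKM in ProNa (1.28 against LPS, adjusted p = 7.0e-78). With ProNa against LPS, 3 of the 21 rose and 5 fell in the authors' deposited table. Besides Cmpk2, the others that led were Samhd1, which breaks down deoxynucleotides (1.22), and Ssbp1, the single-strand binding protein of mitochondrial DNA (0.42). The counts on the FPKM scale were 2 higher and 16 lower in LPS against CON, and 3 higher and 9 lower in ProNa against LPS.

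Of 23 genes that cut and modify the mitochondrial precursor RNA, 6 rose and 7 fell in LPS against CON in the authors' deposited table, and 3 rose and 10 fell on the FPKM scale. Between ProNa and LPS 0 rose and 6 fell in the authors' deposited table, and 0 and 8 on the FPKM scale. Trmt10c, the methyltransferase subunit of mitochondrial RNase P, went from 14.7 to 23.3 FPKM (0.93 in the authors' deposited table, adjusted p = 1.0e-29), and stood at 17.5 FPKM in ProNa. Trmt61b, a methyltransferase that acts on mitochondrial tRNA and mt-Rnr2, stood at 2.03, 7.56 and 5.58 FPKM (1.66 and, in ProNa against LPS, -0.53 in the authors' deposited table). Rpusd4, a pseudouridine synthase that acts on mt-Rnr2, had a log2 fold change of -0.80 in LPS against CON in the authors' deposited table. Qtrt1, a subunit of the enzyme that places queuosine in tRNA, and Mrm1, a methyltransferase of mt-Rnr2, each had one of -0.56 in ProNa against LPS in the authors' deposited table.

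Of 20 genes of mitochondrial RNA stability and decay, 6 rose and 7 fell in LPS against CON, and 3 rose and 5 fell in ProNa against LPS, in the authors' deposited table. With the FPKM scale, 4 rose and 13 fell in the first of these comparisons, and 3 rose and 8 fell in the second. Fastkd3 and Fastk, of the FASTK family of mitochondrial RNA-binding proteins, had log2 fold changes of 1.13 and 0.66 in LPS against CON in the authors' deposited table, and Ptcd3, a protein of the small ribosomal subunit, one of -0.88. Pnpt1, the mitochondrial polynucleotide phosphorylase, stood at 29.4, 23.4 and 40.3 FPKM in CON, LPS and ProNa (0.91 for ProNa against LPS in the authors' deposited table, adjusted p = 3.5e-26). The helicase gene Ddx28 (0.76) and Angel2 (-0.49) followed in that comparison in the authors' deposited table.

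The mitochondrial ribosome joins the 2 rRNAs to proteins encoded in the nucleus. Of 50 large subunit genes 15 rose and 17 fell in LPS against CON in the authors' deposited table (median -0.02), and of 32 small subunit genes 6 rose and 11 fell (median -0.05). Among all adjusted genes, 28.1% rose and 27.2% fell in that comparison, and 16.5% rose and 14.1% fell in ProNa against LPS. Mrpl42 (-1.75), Mrpl52 (1.36), Mrpl27 (1.06), Mrps18b (1.35), Mrps5 (-0.85) and Mrps35 (-1.07) led in the authors' deposited table. Between ProNa and LPS, 4 large and 5 small subunit genes rose and 1 of each fell in the authors' deposited table, led by Mrpl30 (0.57), Mrpl13 (0.44), Mrpl54 (0.36), Mrps18c (0.89), Mrps18b (-0.35) and Mrps16 (0.44). By the FPKM scale 10 large subunit genes rose and 24 fell in LPS against CON, and 3 small subunit genes rose and 17 fell. Between ProNa and LPS, 2 large and 1 small subunit genes rose on that scale, and 6 and 4 fell.

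Of 22 genes listed with the mitochondrial aminoacyl-tRNA synthetases, 16 fell and 2 rose in LPS against CON in the authors' deposited table (median -0.53). Synthetases charge the tRNAs, which were listed at 0. The list also holds Gatb, Qrsl1 and Gatc, subunits of an amidotransferase and not synthetases. Gatb (-0.78) and Qrsl1 (-0.66) are among the 16 that fell, and Gatc did not pass. Vars2 fell (-1.73), and Gars, which also serves the cytosol, had a log2 fold change of 1.25 in the authors' deposited table. In ProNa against LPS 1 rose, Kars (0.30), and 1 fell, Ears2 (-0.58), in the authors' deposited table. The FPKM scale had 1 higher and 18 lower in LPS against CON, and 0 higher and 8 lower in ProNa against LPS. Of 13 translation factors 3 rose and 5 fell in LPS against CON, led by Guf1 (-1.74), the membrane insertase Oxa1l (-1.11) and the elongation factor Tufm (-0.74) in the authors' deposited table. In ProNa against LPS, Tufm rose (0.31) and the initiation factor Mtif2 fell (-0.31) in the authors' deposited table. For these factors the FPKM scale had 2 higher and 7 lower in LPS against CON, and 0 higher and 6 lower in ProNa against LPS.

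Of 9 regulators of mitochondrial biogenesis, 3 rose and 3 fell in LPS against CON in the authors' deposited table. Myc went from 0.903 to 26.6 FPKM (5.09), Gabpb1, a subunit of nuclear respiratory factor GABP, had a log2 fold change of 1.14, and the nuclear receptor Esrra one of -0.44, in the authors' deposited table. In ProNa against LPS 1 rose, Myc (0.34), and 2 fell in the authors' deposited table, the coactivators Ppargc1b (-0.91) and Pprc1 (-0.44). The FPKM scale gave 2 higher and 5 lower in LPS against CON, and 1 higher and 4 lower in ProNa against LPS. Among 16 genes of mitophagy and mitochondrial DNA sensing, 8 rose and 5 fell in LPS against CON, and 6 rose and 2 fell in ProNa against LPS, in the authors' deposited table. Their counts on the FPKM scale were 8 higher and 6 lower, and 6 higher and 4 lower. Sqstm1, an autophagy receptor, had log2 fold changes of 4.77 and -0.37 in these comparisons in the authors' deposited table. The DNA sensor gene Cgas had one of -1.68 in LPS against CON, Zbp1, a nucleic acid sensor, had 2.27 and 1.04 in these comparisons, and Nlrp3, of the inflammasome, had 0.98 in ProNa against LPS in the authors' deposited table.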

How the data were processed

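The submitters' processing notes name the tools HISAT2, StringTie and DESeq2 and the build GRCm39, with versions not given in the sources used here. Of the 3 deposited files 2 were used. The first holds FPKM per transcript, per the file headers, for 140725 reference and 12638 assembled transcripts. Its 3 group columns were taken as the authors' means of CON, LPS and ProNa, and FPKM were summed by gene identifier. A further 9 columns of per-library values carry names that match no label and were not used. The other is the table the authors deposited, with log2 fold changes and p-values for 3 comparisons. A limma fit to values per library could therefore not be run, and calls rest on the authors' adjusted p-values under 0.05, so no SD, n or count of samples showing a direction accompanies them. They equal a Benjamini-Hochberg adjustment over 17795, 12732 and 18540 genes, and genes listed at an adjusted p of 1 were treated as untested.

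The members and gene lists (19 lists, 334 entries, 333 matched) were chosen with earlier results of these data known. All mRNAs and rRNAs were named, and from each list of mitochondrial genes the 3 with the smallest passing adjusted p in LPS against CON and in ProNa against LPS; some of these are not reported here. For the FPKM scale, a standard error was taken from each fold change and p-value, the median gap was removed, and p-values were recomputed and adjusted. Tested on simulated data, with 200 genes changed by a log2 fold of 1, this called 58% of them among 17795 genes for LPS against CON, 80% among 12732 for ProNa against LPS and 59% among 18540 for ProNa against CON, with 8, 9 and 12 unchanged genes called. The simulation put the same gap on every gene and took off that known gap. It therefore did not test how well the gap was estimated from the data. Nuclear copies were found with blastn (BLAST+ 2.17.0) between GENCODE M21 transcripts. The mitochondrial transcripts had equal lengths in that release and in the deposited matrix, 37 of 37. That release is on GRCm38, so no coordinates are printed. Ratios used a pseudocount of 0.5 FPKM, and calculations were made in Python 3.11.15 with pandas 2.3.3 and scipy 1.17.1. Alternatives were a threshold of 0.01, at least a 2-fold change, the FPKM scale, a mean of at least 10 FPKM, pseudocounts of 0.1 and 5, reference transcripts only, and removal of the 10 highest other genes, together with shares and ratios that add nuclear copies or leave out mt-Atp8, which were chosen after seeing the data.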

Additional observations from a re-analysis of the deposited data

How the results depend on the processing

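No paired analysis was possible because the per-library columns carry names that no label gives, and leaving out single replicates was not run for the same reason. With at least a 2-fold change required, members higher and lower numbered 1 and 6 in LPS against CON, 1 and 0 in ProNa against LPS and 1 and 1 in ProNa against CON. On the FPKM scale 3 were higher in ProNa against LPS. The members' share of summed FPKM in CON, LPS and ProNa was 13.4%, 6.64% and 6.75% with nuclear copies and 3.68%, 1.83% and 1.83% without mt-Atp8. The summed rRNA level was 0.675%, 4.51% and 3.48% of that of the mRNAs. That ratio was 13.4%, 91.4% and 68.8% with geometric means, 0.409%, 1.37% and 1.20% with mt-Rnr2 alone, 0.266% in CON and 2.27% in ProNa with mt-Rnr1 alone, and 0.395%, 2.42% and 1.85% with copies. In each of these settings the ratio was lowest in CON and highest in LPS. Fold changes of single members kept their direction where they passed on either scale, and 5 of them lost and 1 gained a call on the FPKM scale. The threshold of 0.01, the filter at 10 FPKM, both pseudocounts, reference transcripts only and removal of the 10 highest other genes moved no count, share or class median beyond the limits used. Depth is unknown, so no counting interval could be given.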
